A study of Drosophila melanogaster with 10 samples.

Results

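The genes described here encode the tubulins of Drosophila melanogaster, the proteins from which microtubules are built. They were chosen by name, with earlier results of these data known: 4 alpha tubulin genes, 4 beta tubulin genes and 2 gamma tubulin genes. A gene was taken as measured where a probe set carried its symbol and no other, and for a gene with several such probe sets the brightest one, by its mean over all 10 arrays, was to be used. This held for 8 of the 10 named genes, out of 11982 genes in all. Each of the 8 had 1 such probe set, so the choice by mean level had no effect. alphaTub84B and gammaTub23C were not analysed here. A further beta tubulin gene, betaTub65B, was on the array and was not in the set.

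The arrays measured total RNA of fluorescent cells sorted from primary cultures of embryo cells, 5 arrays for each of 2 reporter strains. According to the labels, embryos of early gastrula stage were dissociated before any neuron had differentiated, and their cells were cultured at 25 C for 5 to 7 days (5 to 8 in the growth protocol). The embryos came from adults 2 weeks old. The strain called Cha carries Cha-Gal:UAS-GFP, in which Gal4 is made under a 7.4 kb stretch of DNA from the choline acetyltransferase gene and turns on green fluorescent protein. The strain called Gad carries Gad1(s)-RFP, in which a 2.1 kb stretch of glutamate decarboxylase DNA directly drives red fluorescent protein. The groups therefore differ in transgene design and fluorophore as well as in the regulatory DNA, and these cannot be told apart. No array of unsorted or reporter-negative cells was used here. The question of the comparison is how RNA levels differ between cells lit up by a cholinergic reporter and cells lit up by a GABAergic one.

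Alpha and beta tubulin pair into the dimers that polymerise into microtubules, and gamma tubulin forms ring complexes from which new microtubules grow. In neurons, microtubules fill axons and dendrites and serve as tracks for kinesin and dynein motors. The fly uses several genes per class, called isotypes: alphaTub84B, alphaTub84D and betaTub56D are widely used, while others are known mainly from the germ line, muscle or sense organs.

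The genes behind the reporters did not pass the test between groups. The difference, Cha minus Gad on the log2 scale, was 0.68 for ChAT (adjusted p = 0.067), 0.22 for VAChT (0.43), 0.12 for Gad1 (0.626) and 0.49 for VGAT (0.186). All adjusted p-values come from limma, with Benjamini-Hochberg adjustment over the 11982 genes. ChAT passed when Cha replicate 4 or 5, or Gad replicate 4, was left out, and VGAT passed, with the higher mean in Cha, when Cha replicate 4 was left out. Directions below therefore refer to the labels of the arrays. Of all genes, 8.21% passed toward Cha and 10.2% toward Gad, the shares beside which the marker counts below stand. Of 11 markers of neurons, 6 passed toward Cha and 0 toward Gad, and none was dim on all arrays. A probe set is called dim on an array where it lies at or below the 40th percentile of that array (4.75 to 4.84). The count of 6 was 4 without Gad replicate 3 or with the replicate number as a block, and 9 without Cha replicate 4. The log2 of the summed neuron markers ran from 13.96 to 14.89 in Cha and from 12.90 to 13.96 in Gad, so the groups all but met. The mean log2 value of the neuron list overlapped, at 9.57 to 10.48 in Cha and 8.56 to 9.62 in Gad. Dividing-cell markers were higher in Gad in 8 of 10, and their summed log2 level ran from 11.06 to 12.21 in Cha and from 12.10 to 12.50 in Gad. Glial markers were higher in Gad in 4 of 11, blood cell markers in 4 of 12 (2 were higher in Cha), and neuroblast markers in 4 of 10 (7 without Cha replicate 3). The summed log2 level of glial markers was 12.81 to 13.19 in Cha and 13.29 to 13.75 in Gad. That of neuroblast markers was 11.16 to 12.38 and 12.37 to 13.05. That of blood cell markers was 12.39 to 13.10 and 13.24 to 13.96. Its brightest genes were those of the basement membrane, vkg, Col4a1 and LanA (-1.95, -1.65 and -0.93). These genes and srp (-1.73), named after the values were seen, were the 4 higher in Gad. Of the genes that did not pass, Hml, eater and Pxn had the higher mean in Cha, and He, NimC1 and lz in Gad. The mean log2 value of the blood cell list overlapped between groups, at 7.40 to 8.36 in Cha and 7.72 to 8.29 in Gad. The 2 blood cell genes higher in Cha, named after their values were seen, were the prophenoloxidase genes PPO1 (3.39) and PPO2 (1.73). Of the glial markers, wrapper and Gat were dim on all arrays. Their part in the tubulin differences was not tested, and in such bulk samples fewer cells of a type and less RNA per cell cannot be told apart.

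Of the 8 measured tubulin genes, 2 were higher in Cha (alphaTub84D and betaTub85D), 0 were higher in Gad, and 6 did not pass the threshold of 0.05 on the adjusted p. Before adjustment, limma placed 5 of the 8 under that threshold, beside 3809 of the 11982 genes: the 2 called genes, betaTub56D and gammaTub37C with the higher mean in Cha, and alphaTub85E with the higher mean in Gad. Over all genes, 8.21% were higher in Cha, 10.2% were higher in Gad, and 18.5% passed in either direction. Over all genes 2212 passed, and 1377 did without Gad replicate 3. The 5 Cha arrays did not overlap the 5 Gad arrays in 3 tubulin genes (alphaTub84D, betaTub56D and betaTub85D), all higher in Cha, against 5.93% of all genes with no overlap in that direction and 13.5% in either. The median difference over the 8 genes was 0.21, against 0.04 over all genes. The replicate SD was larger in Cha than in Gad: its median over the 8 genes was 0.391 in Cha and 0.152 in Gad, against 0.252 and 0.167 over all genes. Levels of different tubulin probe sets are not set against each other here, because probes differ in how strongly they bind. The summed levels of the marker lists do add different probe sets, so bright probe sets weigh most in them.

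**Figure D1:**
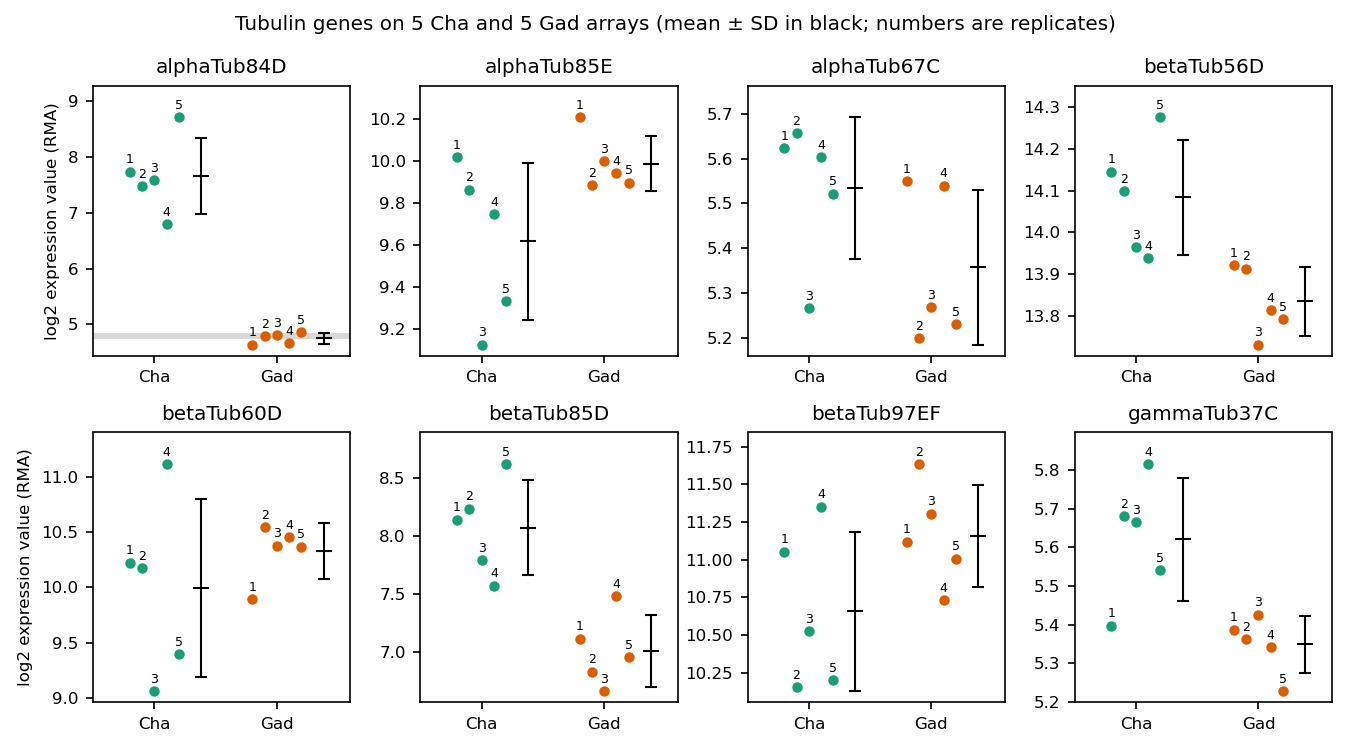
Log2 expression values of the 8 tubulin genes on the 5 Cha and 5 Gad arrays, with a vertical axis of its own for each gene. Points are arrays with their replicate numbers, black bars are the mean ± SD of a group, and the grey band marks the 40th percentiles of the arrays (4.75 to 4.84). alphaTub84D lies between 6.79 and 8.70 in Cha and between 4.64 and 4.87 in Gad.

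Among the alpha tubulins, alphaTub84D showed the largest difference between the groups of the 8 genes. It encodes a widely used alpha tubulin that is nearly identical to the product of alphaTub84B. Its log2 values were 7.73, 7.47, 7.57, 6.79 and 8.70 on Cha replicates 1 to 5, and 4.64, 4.79, 4.81, 4.67 and 4.87 on Gad replicates 1 to 5. All 5 Cha arrays were above all 5 Gad arrays, with a gap of 1.93 between the lowest Cha and the highest Gad value. The means were 7.65 ± 0.69 (SD, n = 5) and 4.76 ± 0.10, a difference of 2.90 (SE 0.27, 95% interval 2.30 to 3.50) with a limma adjusted p of 0.000136. alphaTub84D was dim on 2 of the 5 Gad arrays and close to the dim line on the other 3, and RMA values have no true zero. The corresponding 7.46-fold is therefore uncertain, may understate the difference and has no upper limit that these arrays could measure. The probe set has the suffix s_at, which in Affymetrix naming marks probes shared by more than 1 transcript; which transcripts these probes match was not examined here.

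alphaTub85E encodes an alpha tubulin known from support cells of stretch-sensing chordotonal organs, from muscle attachments and from the testis. Its values were 10.02, 9.87, 9.13, 9.75 and 9.33 in Cha and 10.21, 9.89, 10.002, 9.94 and 9.90 in Gad. The Gad arrays lay close together, and 4 of the 5 Cha arrays were below all of them, while Cha replicate 1 lay inside the Gad range. The difference of -0.37 (SE 0.17, interval -0.73 to -0.0049) did not pass (adjusted p = 0.152). Of 11 markers of cilia and chordotonal organs, 1 was higher in Gad, beside 10.2% of all genes. On all arrays 5 of the markers were dim, among them the channel genes nompC, iav and nan. The summed log2 level was 9.33 to 10.20 in Cha and 9.79 to 10.06 in Gad.

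alphaTub67C encodes the maternal alpha tubulin, which the mother loads into the egg. It had log2 values of 5.27 to 5.66 in Cha and 5.20 to 5.55 in Gad, with medians of 5.60 and 5.27. The groups overlapped, since Cha replicate 3 lay with the 3 lower Gad arrays and Gad replicates 1 and 4 lay with the Cha arrays. The difference was 0.18 (interval -0.07 to 0.42, adjusted p = 0.31).

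Among the beta tubulins, betaTub85D was higher in Cha. It encodes the beta tubulin of the male germ line, which builds the spindles and sperm tails of the testis. Its values were 8.14, 8.24, 7.79, 7.57 and 8.62 on Cha replicates 1 to 5 and 7.12, 6.83, 6.66, 7.48 and 6.95 on Gad replicates 1 to 5. The groups did not overlap, but the gap was only 0.09, between Cha replicate 4 and Gad replicate 4. The means were 8.07 ± 0.41 (SD, n = 5) and 7.01 ± 0.31, a difference of 1.07 (SE 0.21, interval 0.61 to 1.52) or 2.09-fold (1.53 to 2.87), with a limma adjusted p of 0.00600. The gene was dim on 0 of the 10 arrays.

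Markers of the testis were set beside betaTub85D. Of 16 such genes, 10 were dim on all 10 arrays, among them can, sa, nht and aly, factors for the transcription programme of spermatocytes, and the sperm genes dj, Mst84Da, Mst87F, ProtA and ProtB. Toward Cha 2 passed, beside 8.21% of all genes. They were bam, which ends the dividing phase of early germ cells (8.38 ± 0.66 against 6.99 ± 0.39, SD, n = 5, adjusted p = 0.0105), and ProtB. ProtB was dim throughout and did not pass without Gad replicate 1, 3 or 5. The summed log2 level of the list was 9.44 to 10.29 in Cha and 8.92 to 9.28 in Gad, so the groups did not overlap. Such a sum weighs bright genes most, and bam had the highest Cha mean of the list. The mean log2 value of the list, 4.60 to 4.85 in Cha and 4.39 to 4.56 in Gad, did not overlap either. The part of the list in the difference of betaTub85D was not tested.

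betaTub56D encodes the widely used beta tubulin. Its values were 14.15, 14.10, 13.96, 13.94 and 14.28 in Cha and 13.92, 13.91, 13.73, 13.81 and 13.79 in Gad. The Cha arrays were all above the Gad arrays, with a gap of 0.017 between Cha replicate 4 and Gad replicate 1. The difference of 0.25 (SE 0.09, interval 0.05 to 0.45, or 1.04-fold to 1.37-fold) did not pass the threshold over all genes (adjusted p = 0.0813). An exact 2-sided permutation test of this gene alone gave p = 0.00794, the smallest that 5 against 5 arrays can give, and so did those of alphaTub84D and betaTub85D. Any gene without overlap must give this p, as 13.5% of all genes do, so it adds nothing to the lack of overlap. The probe set also carries the suffix s_at.

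The other beta tubulins, betaTub60D and betaTub97EF, had their higher mean in Gad and did not pass. betaTub60D encodes the beta tubulin of developing muscle, which is also used in other differentiating cells. Its values were 10.22, 10.18, 9.06, 11.12 and 9.40 in Cha and 9.90, 10.54, 10.38, 10.45 and 10.37 in Gad. The Cha arrays spread over more than 2 log2 units and enclosed the whole Gad range. The difference was -0.33 (interval -1.05 to 0.39, adjusted p = 0.534). Of 8 measured muscle markers (12 were listed), 5 passed toward Gad, 0 toward Cha, and 0 were dim on all arrays, with a summed log2 level of 9.69 to 10.95 in Cha and 10.74 to 11.57 in Gad. Leaving out Cha replicate 1, 3 or 5, or Gad replicate 3, 4 or 5, lowered that count to 2, and leaving out Gad replicate 1 lowered it to 3. Their part in the values of betaTub60D was not tested.

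betaTub97EF, a further beta tubulin isotype, had values of 11.05, 10.15, 10.53, 11.35 and 10.20 in Cha and 11.12, 11.64, 11.31, 10.73 and 11.01 in Gad. Cha replicates 2, 3 and 5 were below all Gad arrays, while Cha replicates 1 and 4 lay within the Gad range. The difference was -0.50 (SE 0.25, interval -1.05 to 0.05, adjusted p = 0.195). Without Cha replicate 4 it was -0.68, with an adjusted p of 0.050.

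Of the gamma tubulins, gammaTub37C was measured. It is known from the female germ line and the early embryo, while gammaTub23C serves most other cells. Its values were 5.40, 5.68, 5.67, 5.82 and 5.54 in Cha and 5.39, 5.36, 5.43, 5.34 and 5.23 in Gad. On 4 of the 5 Cha arrays it was above every Gad array, and Cha replicate 1 lay among the Gad arrays. The difference of 0.27 (SE 0.09, interval 0.06 to 0.48) did not pass (adjusted p = 0.0703), and it passed without Cha replicate 1 (0.33, adjusted p = 0.0326). The genes known from eggs, alphaTub67C and gammaTub37C, were set beside 11 markers of ovary and maternal RNA. Of these, 0 were higher in Cha and 2 in Gad, beside 8.21% and 10.2% of all genes. The Gad count was 1 when Cha replicate 2 or Gad replicate 1, 2 or 3 was left out. On all arrays osk, vas, plu and yl were dim. The summed log2 level of this list was 8.27 to 8.50 in Cha and 8.69 to 8.80 in Gad. The 2 genes higher in Gad, named after their values were seen, were png (-0.59) and CycB3 (6.15 in Cha and 7.13 in Gad), the brightest of the list in Gad and also among the dividing-cell markers. The part of such RNA in the values of both tubulin genes was not tested.

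To compare isotypes, the value of betaTub56D was subtracted from that of every other gene on the same array, and the within-array differences were fitted with limma over all 11981 other genes. Relative to betaTub56D, alphaTub84D was higher in Cha by 2.65 (SE 0.23, interval 2.14 to 3.15, adjusted p = 3.72e-05). betaTub85D was higher in Cha by 0.82 (interval 0.44 to 1.19, adjusted p = 0.00553), with ranges of -6.37 to -5.65 in Cha and -7.09 to -6.33 in Gad that overlapped slightly. alphaTub85E was higher in Gad, by -0.62 (interval -1.0 to -0.24, adjusted p = 0.0230). Its ranges of -4.94 to -4.13 in Cha and -4.03 to -3.71 in Gad did not overlap, and its call ended without Gad replicate 1 (adjusted p = 0.0521) or Gad replicate 3 (0.0602). In this fit 23.4% of all genes passed, with 2.55% higher in Cha and 20.8% higher in Gad, a split that differs from 8.21% and 10.2% because betaTub56D itself had its higher mean in Cha.

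The other isotypes did not pass relative to betaTub56D. For betaTub97EF the difference was -0.75 (interval -1.34 to -0.17, adjusted p = 0.0615), and without Cha replicate 4 it was -0.96 and passed (0.00769). For betaTub60D it was -0.58 (interval -1.33 to 0.17, adjusted p = 0.228), and without Cha replicate 4 it was -0.90 and passed (0.0164). For alphaTub67C it was -0.07 (interval -0.35 to 0.20) and for gammaTub37C 0.021 (interval -0.28 to 0.32). The higher Cha means of these last 2 genes in the deposited values were thus of the size of the difference of betaTub56D. Such a ratio shows unequal change between probe sets and not that either one was unchanged.

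**Figure D2:**
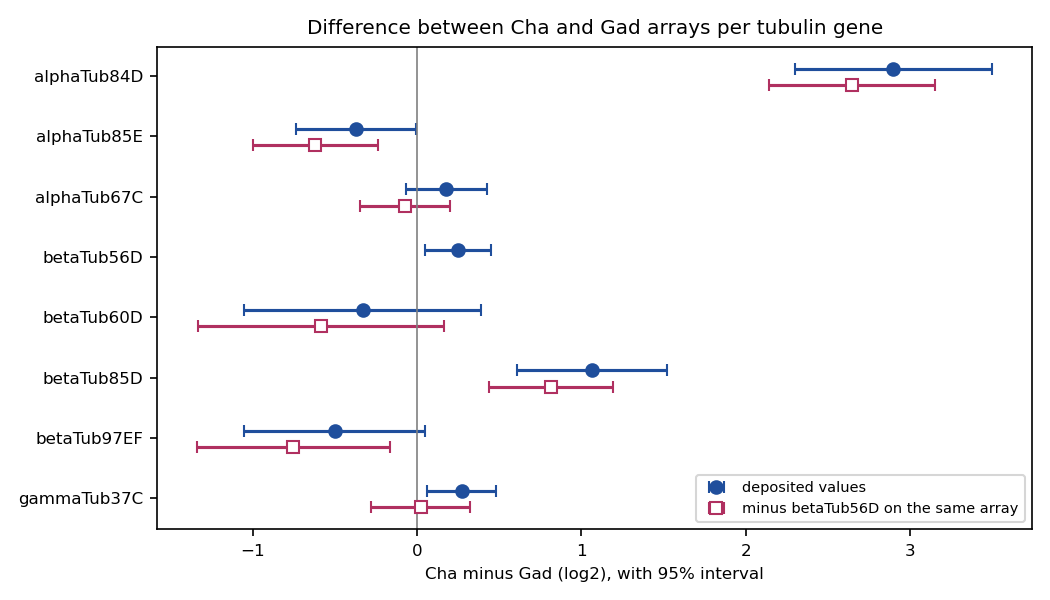
Difference between the groups, Cha minus Gad on the log2 scale, for each tubulin gene, with 95% intervals from limma. Filled circles are the deposited values and open squares are values relative to betaTub56D on the same array; alphaTub84D (2.90 and 2.65) and betaTub85D (1.07 and 0.82) lie to the right of 0 in both, and alphaTub85E (-0.37 and -0.62) lies to the left.

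Within the Cha group some isotypes had their extremes on the same arrays and others on opposite ones. Cha replicate 5 had the highest value of alphaTub84D, betaTub85D and betaTub56D, which lay 1.05, 0.55 and 0.19 above their group means. Cha replicate 4 had the lowest value of the same 3 genes (-0.86, -0.50 and -0.15 from the mean) and the highest of betaTub60D, betaTub97EF and gammaTub37C (1.12, 0.70 and 0.20). Cha replicate 3 had the lowest value of betaTub60D, alphaTub85E and alphaTub67C (-0.93, -0.49 and -0.27). Pearson's r of alphaTub84D with betaTub85D was 0.90 over the 5 Cha arrays and -0.71 over the 5 Gad arrays. With betaTub56D it was 0.89 and -0.49, and that of betaTub56D with betaTub85D was 0.97 and 0.23. These 3 genes thus did not vary together in Gad as they did in Cha. In Gad the deviations of alphaTub84D stayed between -0.12 and 0.11, close to the dim line, and the 4 widest were those of betaTub97EF on replicates 2 and 4 (0.48 and -0.43), betaTub85D on replicate 4 (0.47) and betaTub60D on replicate 1 (-0.43). Over the list of neuron markers, the mean log2 value was lowest among the Cha arrays on replicate 4 (9.57, against 9.98 to 10.48 on the others), and that of dividing-cell markers was highest there (7.93, against 6.94 to 7.67). On Cha replicate 5 these means were 10.18 and 7.35, neither the highest nor the lowest of the group. The means of the cholinergic, GABAergic, blood cell and cilium lists were also lowest on Cha replicate 4. Those of the muscle and neuroblast lists were highest there. Their part in the pattern of the tubulin genes was not tested.

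**Figure D3:**
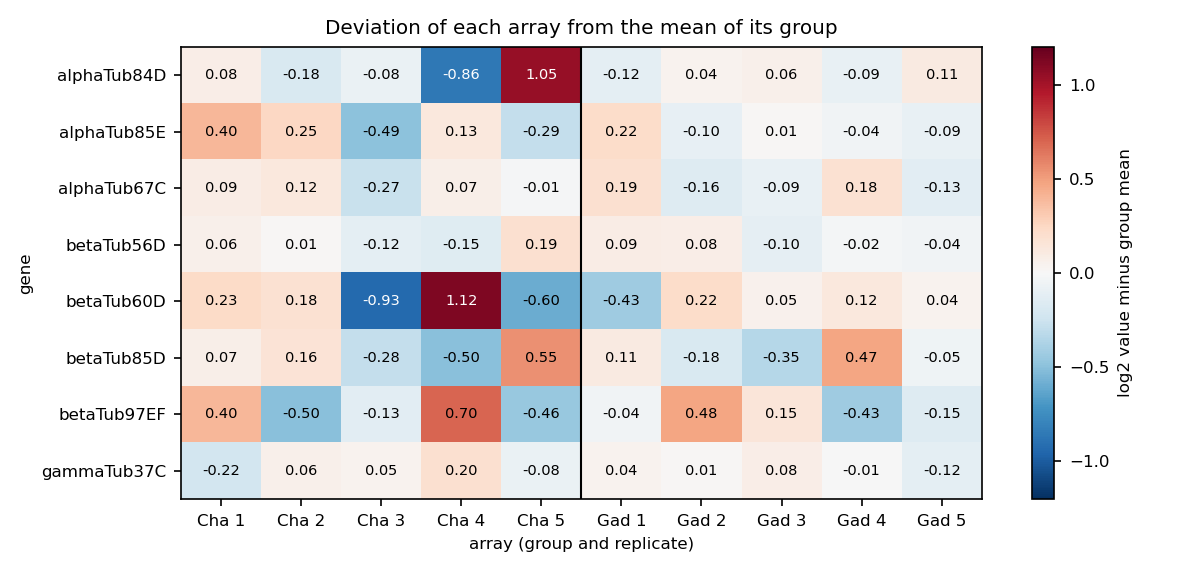
Deviation of each array from the mean of its group, in log2 units, for the 8 tubulin genes (rows) on the 5 Cha and 5 Gad arrays (columns). Red is above and blue is below the group mean; on Cha replicate 4, alphaTub84D is at -0.86 and betaTub60D at 1.12, and on Cha replicate 5 they are at 1.05 and -0.60.

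For the tubulin genes that passed, the 3 genes with the most similar pattern were named by Pearson's r over the 10 arrays, as a description. The group means of these genes differ too, so r over all arrays mostly reflects that difference, and r of the deviations from the group means is given beside it. For alphaTub84D they were dbr (r = 0.982, and 0.763 for the deviations), Hmt-1 (0.978 and 0.701) and Polr3C (0.977 and 0.788). Hmt-1 had a difference near that of alphaTub84D (2.89), and dbr (1.66) and Polr3C (0.92) had smaller ones. For betaTub85D they were Cdk5alpha, which encodes the activator of the kinase Cdk5 (r = 0.982, and 0.935 for the deviations), CG6424 (0.979 and 0.960) and Arfip (0.977 and 0.913), with differences of 1.05, 0.69 and 0.68. They were picked as the highest of 11981 values each, and no link between the genes follows from r.

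Other genes of the microtubule system were described through 5 lists with 101 measured genes, of which 19 passed toward Cha and 9 toward Gad, beside 8.21% and 10.2% of all genes. Among 22 microtubule-associated and severing proteins, 6 passed toward Cha and 0 toward Gad, with a median difference of 0.36. CLIP-190, which binds growing microtubule ends, was at 8.57 ± 0.11 (SD, n = 5) in Cha and 7.82 ± 0.12 in Gad (0.74, adjusted p = 0.000553). ringer, a regulator of microtubule stability of the TPPP family, was at 11.42 ± 0.17 and 10.79 ± 0.12 (0.63, adjusted p = 0.00288). futsch, the MAP1B-like protein of axonal microtubules, differed by 1.30 (SE 0.24, adjusted p = 0.00466), while its other probe sets gave -0.041 and 0.093. It is also among the neuron markers. All 3 were called in every fit that left out 1 array, and the count of 6 fell to 3 without Gad replicate 3 while 1 gene of the list was higher in Gad without Cha replicate 4.

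Motor genes passed in both directions. Of 18 kinesin genes, 6 passed toward Cha and 3 toward Gad (median 0.09, and 3 were dim on all arrays). Kap3, the accessory subunit of kinesin-2, was at 10.09 ± 0.38 (SD, n = 5) in Cha and 8.71 ± 0.38 in Gad (1.38, adjusted p = 0.00206). The spindle kinesins ncd (-0.94, adjusted p = 0.00186) and neb (-0.54, adjusted p = 0.00964) were higher in Gad. The Cha count was 3 without Gad replicate 1. Of 20 dynein and dynactin genes, 3 passed toward Cha and 0 toward Gad (median 0.21): the light chain gene Dlc90F (0.67, adjusted p = 0.00888), the heavy chain gene Dhc64C (0.43, adjusted p = 0.0435; -0.057 and 0.059 on other probe sets) and DCTN5-p25 (0.48, adjusted p = 0.0492). This count was 1 when Cha replicate 3 or 5 or any single Gad array was left out, and under a second quantile normalization, loess and the trended prior, and 1 gene was higher in Gad without Cha replicate 4.

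Genes that make, nucleate or modify tubulin showed no shared direction. Of 26 genes for tubulin folding, the gamma-tubulin ring and the augmin complex, 1 passed toward Cha and 4 toward Gad (2 when Gad replicate 1 was left out), with a median of -0.025. Of the ring complex genes, Grip75 was higher in Cha (0.64, SE 0.13, adjusted p = 0.00629) and Grip128 in Gad (-1.10, SE 0.21, adjusted p = 0.00583), while Grip84, Grip91 and Grip163 did not pass. dgt5, an augmin subunit that amplifies spindle microtubules, was higher in Gad (-0.57, adjusted p = 0.00872), and dgt6 (-0.55) and Grip71 (-0.50), named after their values were seen, completed the 4. Of 15 tubulin-modifying enzymes, 3 passed toward Cha and 2 toward Gad (median -0.047, and 3 were dim on all arrays). TTLL15, of the tubulin tyrosine ligase-like family, was higher in Gad (-0.67, adjusted p = 0.00615). TTLL5, of the same family, was higher in Cha (0.47, adjusted p = 0.0212), as was the alpha tubulin acetylase Atat (0.67, adjusted p = 0.0330; 0.016 on another probe set). The others, named after their values were seen, were TTLL4A (0.64, adjusted p = 0.0359) in Cha and the deacetylase HDAC6 (-0.73, adjusted p = 0.0428) in Gad. Leaving out Cha replicate 2 or 5, or Gad replicate 1 or 3, lowered the Cha count to 1, and leaving out Gad replicate 2 or 5 lowered it to 0. The Gad count was 1 when Cha replicate 3 or 5 or any single Gad array was left out.

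**Figure D4:**
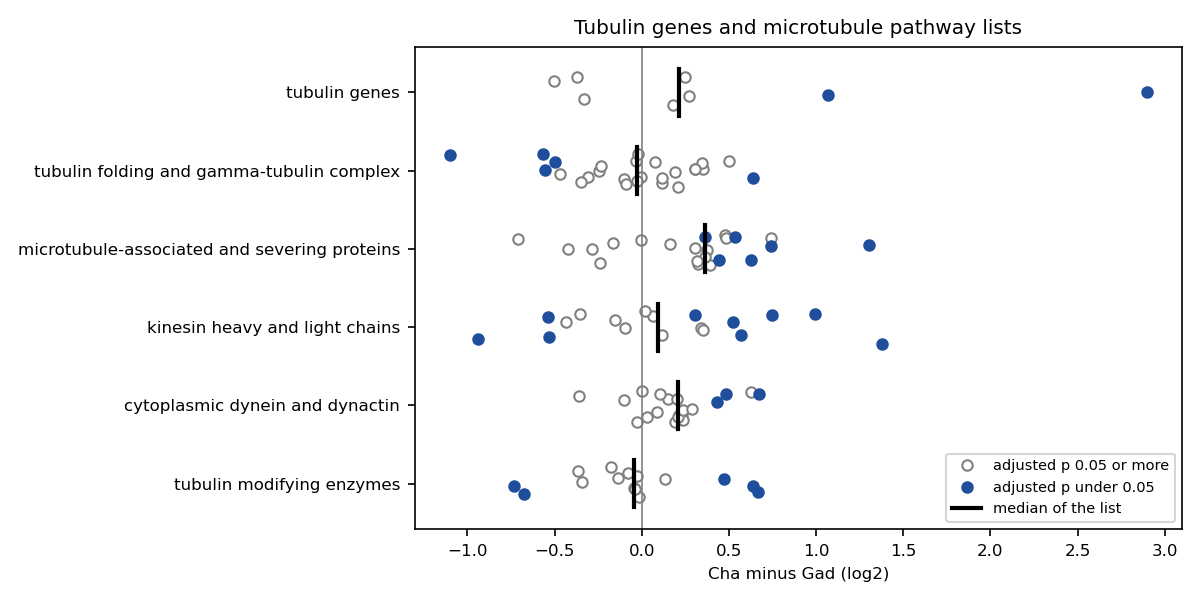
Difference between the groups, Cha minus Gad on the log2 scale, for the 8 tubulin genes and the 5 microtubule lists. Each point is a gene (its vertical position within a list has no meaning), filled points have a limma adjusted p under 0.05, and black bars are list medians, which run from -0.047 for modifying enzymes to 0.36 for microtubule-associated proteins.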

How the data were processed

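The deposited table holds log2 values that the authors computed with RMA (per the submitters' processing notes, which name no version). The method brings the probe intensities of all arrays to 1 distribution, so a shift of most genes would not be seen. The deposited values had array medians from 5.68 to 5.75. The table held 18952 probe sets, of which 183 controls were left out. Of the other 18769, 13647 had 1 gene symbol in the platform annotation, 402 had several and 4720 were unnamed. The brightest probe set stood for each of 11982 genes. Groups and replicate numbers came from the sample titles. The labels do not say that samples came from separate cultures, so p-values measure only the spread between these samples, and the number of arrays limits the precision.

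The fit was a 2-group model without covariates (lmFit, then eBayes, 2-sided tests) in limma 3.58.1 under R 4.3.3, also tested on simulated data. With 50 genes seeded at each size, it recovered 30% of differences of 0.5, 78% of 1 and 100% of 2 and 3. Of the simulated calls, 6.10% were genes without a seeded difference. A gene that did not pass is therefore not shown to be equal between groups. The comparison within arrays was planned against alphaTub84B, betaTub56D and gammaTub23C; only betaTub56D was measured, so alpha and gamma tubulins were set against it, a choice made after seeing the data. The named genes are all measured tubulins, the 3 genes most alike to each tubulin past the threshold, the reporters' genes and, per pathway list, up to 3 genes past the threshold with the smallest p; exceptions are stated. Counts of marker and pathway lists cover only the listed genes that were measured. The largest losses were in muscle (8 of 12 measured), dividing-cell (10 of 15) and kinesin genes (18 of 24). Of the 11 marker lists, those for cholinergic and GABAergic cells passed the test in 0 of 3 genes each. The others are in the report. Members and lists were chosen with earlier results of these data known.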

Additional observations from a re-analysis of the deposited data

Results flagged for a closer look

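In the Gad group, betaTub60D had a log2 value of 9.90 on replicate 1, the lowest of the 5 arrays and far from the others (10.37 to 10.54). The gap to the nearest array was 0.728 of the whole range, above Dixon's critical value of 0.71 for 5 samples. Chance gives about 1 such value in 20 groups, and 16 groups of 5 arrays were examined.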

How the results depend on the processing

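alphaTub84D (2.64 to 3.11, adjusted p at most 0.00276) and betaTub85D (0.93 to 1.19, adjusted p at most 0.0432) passed in all 19 limma alternatives, and the other 6 tubulin genes kept their direction in them. The count of 2 tubulin genes higher in Cha was 4 with array weights, which added betaTub56D (0.28, adjusted p = 0.0338) and gammaTub37C (0.29, 0.0476), and 2 to 3 without 1 array; the count higher in Gad was 0 throughout. The 2212 genes that passed became 1113 with the replicate number as a block and 1377 to 2614 without 1 array. They became 1055 after removal of Cha replicate 2 and Gad replicate 5, the 2 arrays whose descriptions end in the same letter code, (K+). Same-numbered arrays deviated together at correlations of -0.40 to 0.035, so the numbers were not taken as pairs. With the block, alphaTub84D (adjusted p = 0.00222) and betaTub85D (0.0323) passed. Relative to betaTub56D, betaTub85D passed in all alternatives. betaTub60D passed with array weights (-0.60, adjusted p = 0.0495) and ranged from -0.90 to -0.38 without 1 array. betaTub97EF passed with array weights (-0.79, adjusted p = 0.0143) and in an exact permutation test without adjustment (-0.75, p = 0.0476), and ranged from -0.96 to -0.59 without 1 array. alphaTub85E did not pass without the arrays sharing a letter code (-0.69, adjusted p = 0.0545). gammaTub37C turned to -0.010 without those arrays, and ranged from -0.064 to 0.092 without 1 array, with -0.020 without Cha replicate 3. With the block, the counts toward Cha were 3 of microtubule-associated proteins, 1 of kinesins, 1 of dynein and dynactin and 0 of modifying enzymes (6, 6, 3 and 3 without it), and those toward Gad 1 each for folding and ring genes, kinesins and modifying enzymes (4, 3 and 2). After removal of the letter-code pair, 2 kinesins, 1 dynein gene and 0 modifying enzymes passed toward Cha and 1 folding or ring gene toward Gad. Array weights gave 2 folding or ring genes toward Cha and 1 gene each of the microtubule-associated and dynein lists toward Gad. Among marker lists, the block lowered the counts toward Gad of dividing-cell genes to 5 (from 8), muscle genes to 2 (from 5) and ovary genes to 1 (from 2), and removal of the letter-code pair lowered those of dividing-cell genes to 4, neuroblast genes to 2 (from 4) and ovary genes to 1. Array weights gave 7 neuroblast genes. The 2 testis genes toward Cha became 1 with the block, loess, the filter on dim probe sets or that removal. Array weights gave 1 cholinergic marker toward Cha, and they, loess, the second quantile normalization and the trended prior each gave 1 GABAergic marker toward Gad, where the counts were 0. That GABAergic marker was Gat (3.96 in Cha and 4.26 in Gad), which was dim on all arrays and is also on the glial list. Gad1 and VGAT had their higher mean in Cha. The causes were not tested. The filter on dim probe sets was not run for the comparison within arrays. Averaging probe sets left the tubulin values as they were, since each gene had 1. alphaTub84D in Gad lies at the lower end of the array's range, which limits its fold.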
